A study of Rattus norvegicus with 10 samples.

Results

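The let-7 and miR-98 family is the set of miRNAs that carry the let-7 seed, measured here as mature 5p miRNAs in the rat hippocampus. The 9 members (let-7a-5p, let-7b-5p, let-7c-5p, let-7d-5p, let-7e-5p, let-7f-5p, let-7g-5p, let-7i-5p and miR-98-5p) were picked by name, and all 9 were found among the 765 miRNAs of the deposited table. All 9 passed the filter of a mean of at least 1 RPM (reads scaled to a library of 1000000 reads), which 474 of the 765 passed. The samples were 5 libraries of the 2-VO group, with both common carotid arteries occluded, and 5 of the sham-operated group, all from Wistar rats of 10 weeks with no genetic change named. The model is one of chronic cerebral hypoperfusion, and the comparison asks which hippocampal miRNAs differ after the occlusion. The sources used here give neither the time between surgery and sampling nor whether each library came from its own animal, so p-values measure the spread between libraries, which may be technical. Replicates are called by the number in the sample title (3, 5, 6, 7 and 8 in 2-VO, 1 to 5 in sham).

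A mature miRNA guides Argonaute to messenger RNAs that pair with its seed, bases 2 to 8 from the 5′ end. let-7 was found in the worm Caenorhabditis elegans as a gene that times development. In mammals the RNA-binding protein LIN28 blocks the processing of let-7 precursors in stem cells and progenitors, and let-7 in turn represses Lin28 messages. Mature let-7 accumulates as neural progenitors leave the cell cycle, and it is abundant in the adult brain.

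The mature sequences show what the members share and where they can be mistaken for each other. They are credited to RefSeq (rat build GRCr8), which had all 9, and the seed is in capitals.
let-7a-5p: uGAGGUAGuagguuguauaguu
let-7b-5p: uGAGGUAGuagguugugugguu
let-7c-5p: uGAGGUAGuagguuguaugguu
let-7d-5p: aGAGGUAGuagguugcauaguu
let-7e-5p: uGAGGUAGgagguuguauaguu
let-7f-5p: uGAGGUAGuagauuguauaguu
let-7g-5p: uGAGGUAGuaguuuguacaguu
let-7i-5p: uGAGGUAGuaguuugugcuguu
miR-98-5p: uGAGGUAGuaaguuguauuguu

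All 9 are 22 bases long with the seed GAGGUAG, and of the 690 listed miRNAs with a RefSeq sequence exactly these 9 had it. The members varied at 8 positions, counted from 1 at the 5′ end. Against let-7a-5p, let-7c-5p differed by A19G, let-7e-5p by U9G and let-7f-5p by G12A, and let-7b-5p set against let-7c-5p gave G17A, the base of let-7b-5p first. These were the 4 of 36 pairs with 1 difference, so a read with a sequencing error can move between let-7a, let-7b, let-7c, let-7e and let-7f. Only let-7d-5p differed at its first base (U1A against let-7a-5p), and let-7g-5p and let-7i-5p shared G12U and U18C against let-7a-5p. miR-98-5p differed from let-7a-5p by G11A and A19U, and the most distant pair, let-7d-5p and let-7i-5p, differed at 6 positions.

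The members come from 12 hairpins in the same RefSeq table (GRCr8, mature 5p coordinates). let-7a-5p lies at chr17:16320145-16320166 and chr8:50805219-50805240, and the reads of both hairpins are in 1 row. let-7f-5p likewise lies at chr17:16320508-16320529 and chrX:24460052-24460073, and let-7c-5p at chr11:29688127-29688148 and chr7:118683636-118683657. let-7a-1, let-7f-1 and let-7d (chr17:16322273-16322294) lie together within the span of a lncRNA gene, and let-7f-2 and miR-98 (chrX:24460663-24460684) within that of Huwe1, a ubiquitin ligase gene. let-7b (chr7:118684044-118684065) neighbours let-7c-2. let-7g lies at chr8:115701026-115701047 within the spans of Wdr82 and Rpl29, let-7e at chr1:67350243-67350264 within that of Spaca6, and let-7i at chr7:60527935-60527956. All of these are on the plus strand except let-7i, which is on the minus strand. The deposited table gives no coordinates, and the submitters' processing notes name the older build rn6.

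The libraries were of like depth, with 13032805 to 13850400 reads behind the RPM values, of which 58.9% to 76.2% fell on listed miRNAs with repeated rows counted once. Even the fewest reads of a member in a library, 4251 for miR-98-5p, had a counting error of 1.53%, while the spread between libraries ran from 7.78% to 18.4% of the mean across members. Marker miRNAs were used to check for brain tissue. No list was particular to the hippocampus, so the label was not tested to that level. The neuronal miR-124-3p, miR-128-3p and miR-9a-5p summed to 158878 to 205287 RPM in 2-VO and 167626 to 204188 RPM in sham libraries, while the liver miRNA miR-122-5p reached at most 2.81 RPM in 2-VO and 3.12 RPM in sham libraries. The 3 choroid plexus miRNAs (miR-204-5p, miR-211-5p and miR-448-3p, none at 0) summed to 387 to 562 RPM in 2-VO and 548 to 949 RPM in sham libraries, while 5 miRNAs of other brain regions and epithelium (none at 0) summed to 77.0, 38.2, 44.8, 18.6 and 48.3 RPM in 2-VO replicates 3, 5, 6, 7 and 8 and to 10.3 to 36.7 RPM in sham libraries. Red blood cell miRNAs summed to 7.15 to 44.2 RPM in 2-VO and 14.7 to 24.5 RPM in sham libraries. Leukocyte and microglia miRNAs summed to 27.0 to 49.5 RPM in 2-VO and 26.2 to 36.8 RPM in sham libraries. The sums of oligodendrocyte, endothelium and muscle miRNAs also overlapped between the groups. The part of any of these lists in the results below was not tested.

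The family took 16.0% ± 0.849 of the listed RPM in 2-VO and 16.0% ± 0.782 in sham libraries (SD, n = 5 each, with repeated rows counted once). Its summed level was 95025, 99629, 129033, 102081 and 114872 RPM in 2-VO replicates 3, 5, 6, 7 and 8, and 97586, 115509, 124951, 106447 and 116278 RPM in sham replicates 1 to 5. The groups overlapped, with the lowest and the highest library both in 2-VO. In RPM the log2 ratio of the mean sums, 2-VO over sham, was -0.053, against an SD within groups of 0.16 on the log2 scale. Scaled to the listed reads, where the SD over the 10 libraries was 0.071, this log2 ratio was -0.0011. With TMM factors, median-of-ratios factors and quantile normalization its sign turned (0.011, 0.0020 and 0.00050). In bulk tissue fewer cells of a type and less miRNA per cell cannot be told apart.

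Within the family, levels spanned 65.4-fold. All members have the same length, so their RPM can be ranked, though adapter ligation favours some ends over others. let-7g-5p (mean over the 10 libraries 30795 RPM), let-7f-5p (29765 RPM) and let-7i-5p (25235 RPM) led and held 77.9% of the family's RPM. let-7c-5p followed with 11651 RPM, then let-7a-5p with 6079 RPM, let-7b-5p with 2781 RPM, let-7e-5p with 1790.2 RPM, let-7d-5p with 1574 RPM and miR-98-5p with 471 RPM. The order of the first pair was not settled, since let-7g-5p lay above let-7f-5p in 6 of 10 libraries. Every other neighbour kept its order in 10 of 10 libraries, although the ranges of let-7f-5p and let-7i-5p and those of let-7e-5p and let-7d-5p overlapped.

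**Figure D1:**
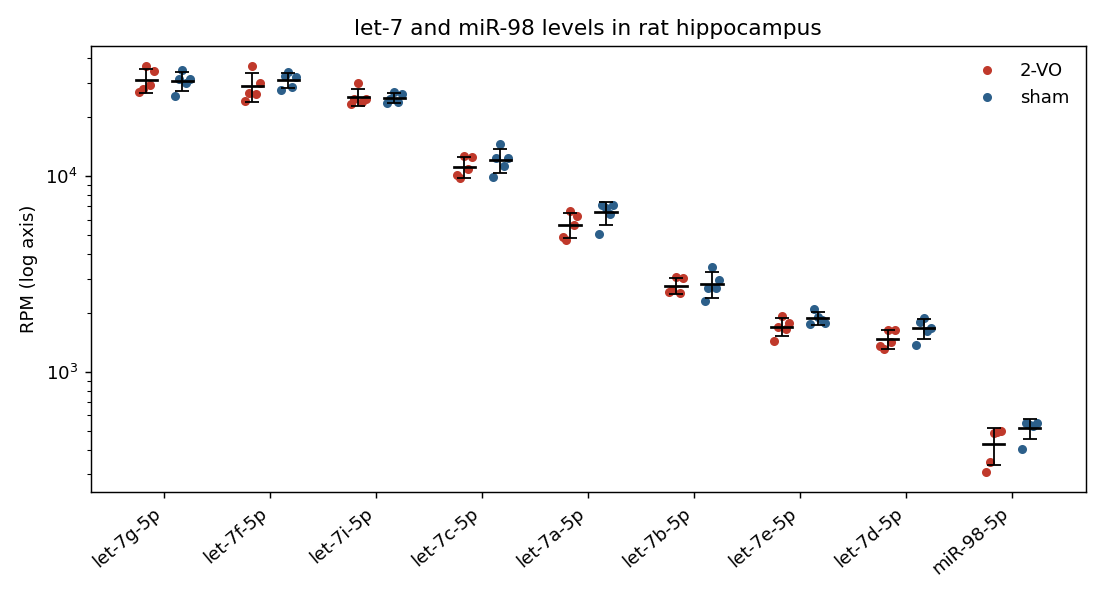
RPM of each member (log axis) in the 5 libraries of 2-VO (red) and the 5 of sham (blue), with points for libraries, lines for means and bars for 1 SD. The members separate by level, from 30795 RPM for let-7g-5p to 471 RPM for miR-98-5p, while the groups overlap for every member.

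The members moved together from library to library, in both groups. All 9 lay below their own mean in 2-VO replicates 3 and 5 and in sham replicate 1, and all 9 lay above it in 2-VO replicate 6 and in sham replicates 3 and 5. The median deviation on the log2 scale ran from -0.21 in 2-VO replicate 3 to 0.20 in sham replicate 3. Such counts were not made outside the family, so the joint movement is not shown to be particular to it. Like the summed family, the summed neuronal miRNAs were lowest in 2-VO replicate 3 (158878 RPM) and highest in 2-VO replicate 6 (205287 RPM). Among sham libraries the neuronal sum was lowest in replicate 4 (167626 RPM), and the family sum in replicate 1. The share of reads on listed miRNAs, with repeated rows counted once, was 58.9%, 68.1%, 76.2%, 62.6% and 72.7% in 2-VO replicates 3, 5, 6, 7 and 8, and 66.5%, 72.4%, 75.0%, 64.7% and 72.0% in sham replicates 1 to 5. It was lowest in 2-VO replicate 3 and highest in 2-VO replicate 6. The shares of 2-VO replicate 7 and sham replicate 4 were lower than those of 2-VO replicate 5 and sham replicate 1, with smaller deviations (-0.092 and -0.037). Scaled to the listed reads, the SD of the summed family's log2 level over the 10 libraries was 0.071, against 0.15 in RPM. The part of this share in the joint movement was not tested. As a share of the listed RPM the family was lowest in 2-VO replicate 5 (14.6%) and sham replicate 1 (14.7%), against 15.8% to 16.9% in the other 2-VO libraries and 16.0% to 16.7% in the other sham libraries.

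**Figure D2:**
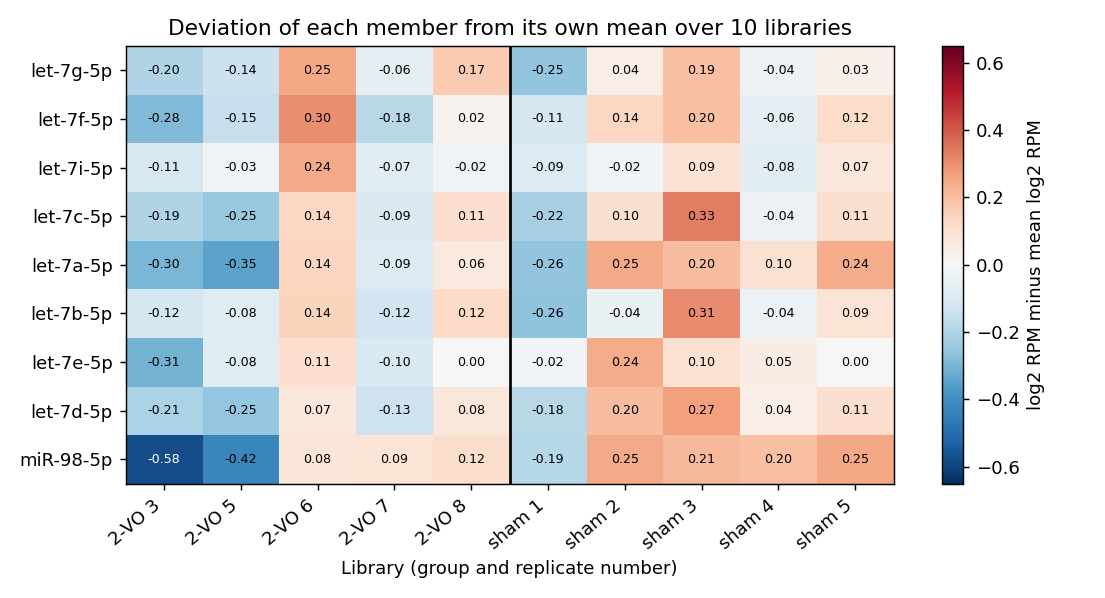
Deviation of each member's log2 RPM from its mean over the 10 libraries, by member (rows, highest level at the top) and library (columns, 2-VO left of the line and sham right of it). Whole columns are blue (2-VO 3, 2-VO 5, sham 1) or red (2-VO 6, sham 3, sham 5), and the deepest value is miR-98-5p in 2-VO replicate 3.

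Of the 9 members, 0 passed the comparison of 2-VO with sham (limma's moderated test on log2(RPM + 1), Benjamini-Hochberg adjusted over 474 miRNAs, smallest adjusted p = 0.76), where 0% of all miRNAs passed. An unadjusted p under 0.05 was found for 0 members and for 5.06% of all miRNAs (4.22% of all were at this level and lower in 2-VO), and limma's voom on whole reads gave 0 members on both counts. Without 2-VO replicate 6 the number of members at an unadjusted p under 0.05 was 3, beside 42 of all 474 miRNAs. Without sham replicate 1 it was 3, beside 27 of 474. It was 1 without 2-VO replicate 7 (beside 22 of 474) or 8 (beside 42), and 2 with array weights (beside 43). In 7 of 9 members the fold change was below 0, beside 62.2% of all miRNAs. This split depended on the scaling, with 6 of 9 members and 50.4% of all miRNAs below 0 scaled to the listed reads, and 6 of 9 and 47.7% with TMM factors. As deposited, the median log2 fold change was -0.11 for the members and -0.051 for all. Without 2-VO replicate 6 these medians were -0.20 and -0.071, and without sham replicate 1 they were -0.17 and -0.079. Groups that do not overlap were found for 0 members and 0.633% of all miRNAs. The 95% interval of the log2 fold change held 0 for all 9, and the widest ran from -0.61 to 0.033.

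miR-98-5p, which shares the Huwe1 locus with let-7f-2, had the lowest fold change. Its level was 309.9, 346, 489, 492 and 502 RPM in 2-VO replicates 3, 5, 6, 7 and 8, and 406, 549, 536, 530.3 and 551 RPM in sham replicates 1 to 5. The 2-VO group held 2 low libraries (3 and 5) that lay below every sham library, while its other 3 lay between the low sham replicate 1 and the rest. The mean was 428 ± 92.1 RPM in 2-VO and 515 ± 61.1 RPM in sham libraries (SD, n = 5 each). On the log2 scale the fold change was -0.29 with a standard error of 0.15, for which limma gave an adjusted p of 0.76. Without 2-VO replicate 3 the fold change was -0.18.

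let-7a-5p, whose sequence is the one let-7 is best known by across animals, came next. Its level was 4889.5, 4731, 6618, 5650.4 and 6279 RPM in 2-VO replicates 3, 5, 6, 7 and 8, and 5034, 7141, 6909.7, 6438 and 7104 RPM in sham replicates 1 to 5. All 5 of the 2-VO libraries lay below the sham median, and 2-VO replicates 3 and 5 lay below every sham library, the lowest of which was replicate 1. On the log2 scale the fold change came to -0.21 with a standard error of 0.12, for which limma gave an adjusted p of 0.77. The row miR-3596a matched let-7a-5p in its number of reads to within 10 reads in each library, so nearly the same values appear in the table under both names.

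let-7d-5p and let-7e-5p, which carry their own base at position 1 or 9, had the next values. let-7d-5p averaged 1476 ± 159 RPM in 2-VO and 1671 ± 194 RPM in sham libraries (SD, n = 5 each), and its fold change (log2) was -0.18 ± 0.11 (SE), with 0.77 as limma's adjusted p. All 5 of the 2-VO libraries lay below its sham median, and 3 of them within the sham range. let-7e-5p averaged 1699 ± 176 RPM in 2-VO and 1881 ± 139 RPM in sham libraries, and its fold change (log2) was -0.15 ± 0.097 (SE), with 0.81 as limma's adjusted p, and -0.093 without 2-VO replicate 3.

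For let-7f-5p, let-7c-5p and let-7b-5p the fold changes lay nearer 0. let-7f-5p stood at 24255, 26668, 36407, 26113 and 29979 RPM in 2-VO replicates 3, 5, 6, 7 and 8, and at 27425, 32482, 33861, 28359 and 32101 RPM in sham replicates 1 to 5. Its 2-VO group spanned more than the sham group, with 3 libraries below the sham range and 1 above it, and the log2 fold change was -0.11 (95% interval -0.35 to 0.12), or -0.058 without 2-VO replicate 3 and -0.20 without 2-VO replicate 6. let-7c-5p averaged 11177 ± 1349 RPM in 2-VO and 12125 ± 1695 RPM in sham libraries (log2 fold change -0.11, 95% interval -0.36 to 0.13). Its fold change was -0.068 with 2-VO replicate 5 left out, -0.046 with sham replicate 3 left out and -0.18 with sham replicate 1 left out. let-7b-5p averaged 2754 ± 256 RPM in 2-VO and 2808 ± 413 RPM in sham libraries. Its log2 fold change of -0.021 turned positive under other scalings, at 0.035 scaled to the listed reads, 0.044 with TMM factors and 0.076 after quantile normalization. It also turned without 2-VO replicate 3 or 7 and without sham replicate 3.

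let-7g-5p and let-7i-5p, the pair with U at position 12, had fold changes nearest 0. let-7g-5p stood at 26728, 27795, 36394, 29338 and 34424 RPM in 2-VO replicates 3, 5, 6, 7 and 8, and at 25651, 31497, 35019, 29814 and 31288 RPM in sham replicates 1 to 5. The groups covered nearly the same range, with a log2 fold change of 0.0098 (95% interval -0.22 to 0.24). let-7i-5p averaged 25340.5 ± 2562 RPM in 2-VO and 25129 ± 1445 RPM in sham libraries, with a log2 fold change of 0.0085 (95% interval -0.18 to 0.20), and it had the smallest relative spread over the 10 libraries of all members (7.78%). Both signs turned without 2-VO replicate 6 and without sham replicate 1, that of let-7g-5p also without 2-VO replicate 8 and that of let-7i-5p also without sham replicate 4.

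**Figure D3:**
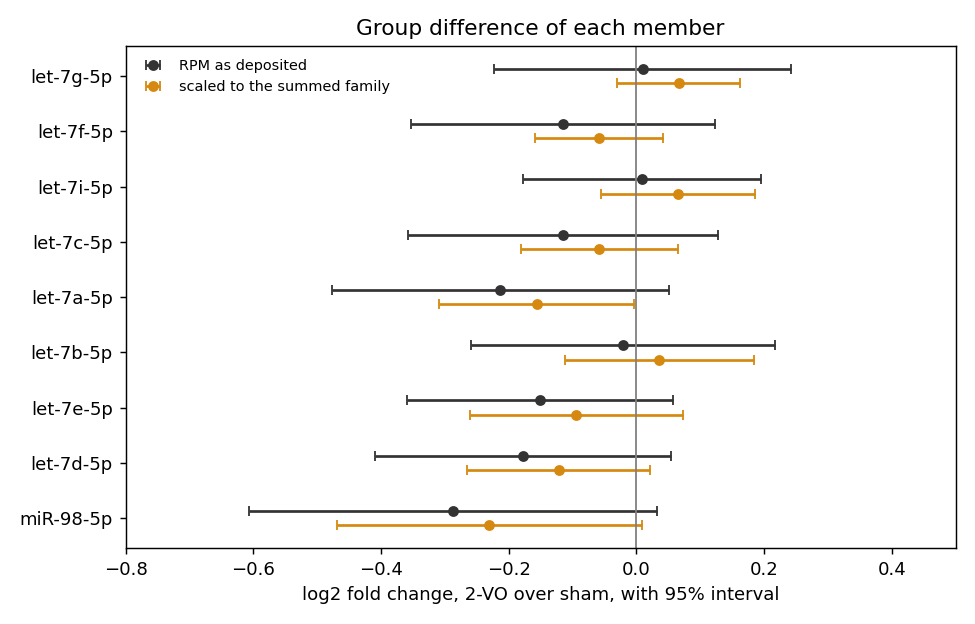
log2 fold change of each member, 2-VO over sham, with its 95% interval from limma, for RPM as deposited (black) and for values scaled to the summed family of each library (orange). The black intervals all hold 0, and the orange ones are narrower, with only that of let-7a-5p just short of 0.

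The make-up of the family was then compared, since a member's share of the summed family does not depend on the divisor of the RPM values. let-7a-5p took 5.15%, 4.75%, 5.13%, 5.54% and 5.47% of the family in 2-VO replicates 3, 5, 6, 7 and 8, and 5.16%, 6.18%, 5.53%, 6.05% and 6.11% in sham replicates 1 to 5. The groups overlapped through sham replicates 1 and 3. Its values scaled to the summed family gave a log2 fold change of -0.16 (95% interval -0.31 to -0.0040), with 0.84 as limma's p adjusted over all miRNAs.

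let-7g-5p took 28.1%, 27.9%, 28.2%, 28.7% and 30.0% in 2-VO replicates 3, 5, 6, 7 and 8, and 26.3%, 27.3%, 28.0%, 28.0% and 26.9% in sham replicates 1 to 5. Of its 2-VO libraries 4 lay above every sham library, and replicate 5 overlapped with sham replicates 3 and 4 (log2 fold change 0.066, limma adjusted p = 0.88). miR-98-5p took 0.394% ± 0.0643 in 2-VO and 0.459% ± 0.0343 in sham libraries (SD, n = 5 each), with 2-VO replicates 3, 5 and 6 below the sham range. let-7d-5p took 1.37% ± 0.0703 in 2-VO and 1.49% ± 0.0567 in sham libraries, with 3 of the 2-VO libraries below the sham range. Of these within-family comparisons 0 of 9 passed, and 1 (let-7a-5p) had an unadjusted p under 0.05, as 24 of the 474 miRNAs did in this scaling.

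**Figure D4:**
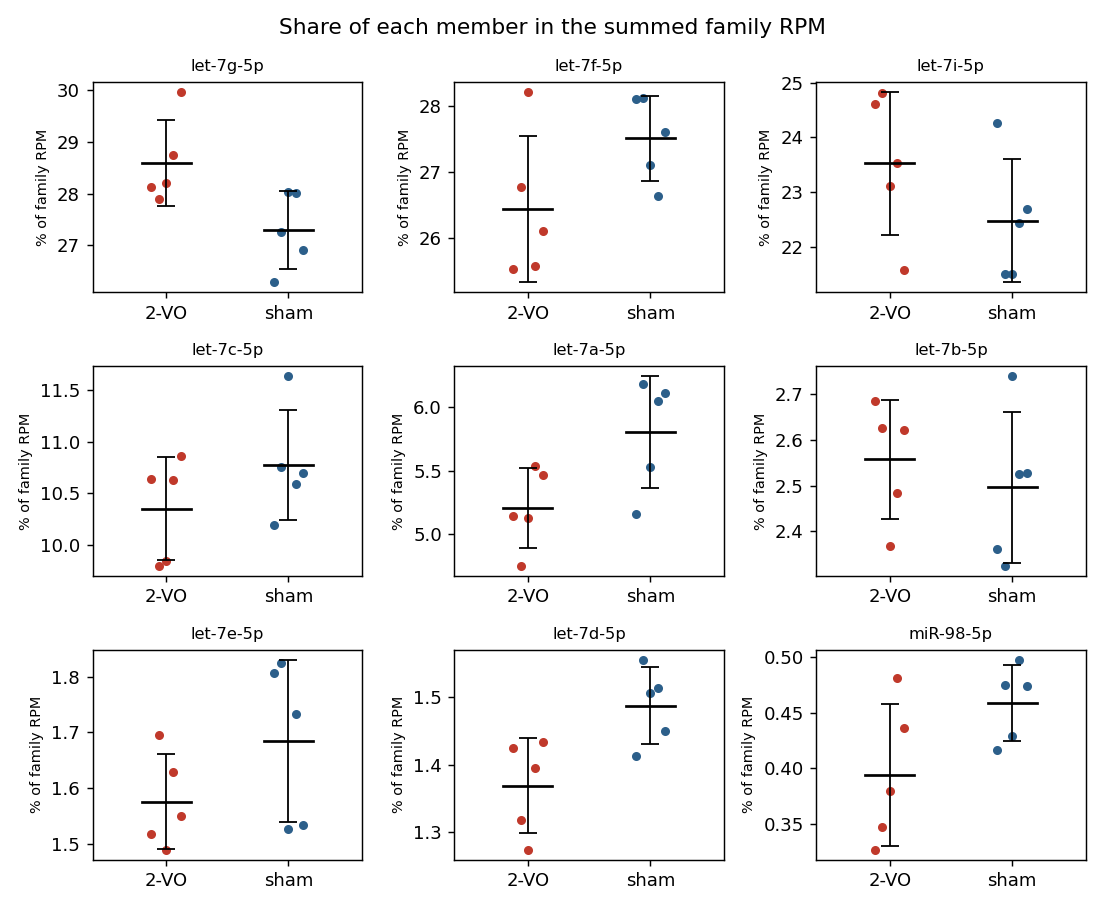
Share of each member in the summed RPM of the family, in percent, in the 5 libraries of 2-VO (red) and the 5 of sham (blue), with lines for means and bars for 1 SD. Each panel has its own axis, which does not start at 0. The shares of let-7g-5p sit higher and those of let-7a-5p and let-7d-5p lower in 2-VO, and the groups overlap in all 9 panels.

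Each hairpin also yields a 3p arm, most of which is usually discarded when the 5p arm is loaded into Argonaute. The table lists 12 such rows, all of which passed the filter. RefSeq had 11 of them, with 6 different seeds, and 4 are shown with the seed in capitals because they stand at the ends of the range of levels.
let-7d-3p: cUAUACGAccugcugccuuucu
let-7a-1-3p: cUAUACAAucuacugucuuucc
let-7a-2-3p: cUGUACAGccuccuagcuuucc
let-7g-3p: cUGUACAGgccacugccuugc

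The arms were most alike in level for let-7d, with a mean of 252 RPM for let-7d-3p over the 10 libraries, against 1574 RPM for let-7d-5p. They were farthest apart for let-7g, with 2.33 RPM for let-7g-3p against 30795 RPM for let-7g-5p. let-7a-1-3p and let-7c-2-3p have the same sequence and the same values in the table (mean 283 RPM), so their reads cannot be assigned to a hairpin. let-7a-2-3p, from the other let-7a hairpin, stood at 1.49 RPM.

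**Figure D5:**
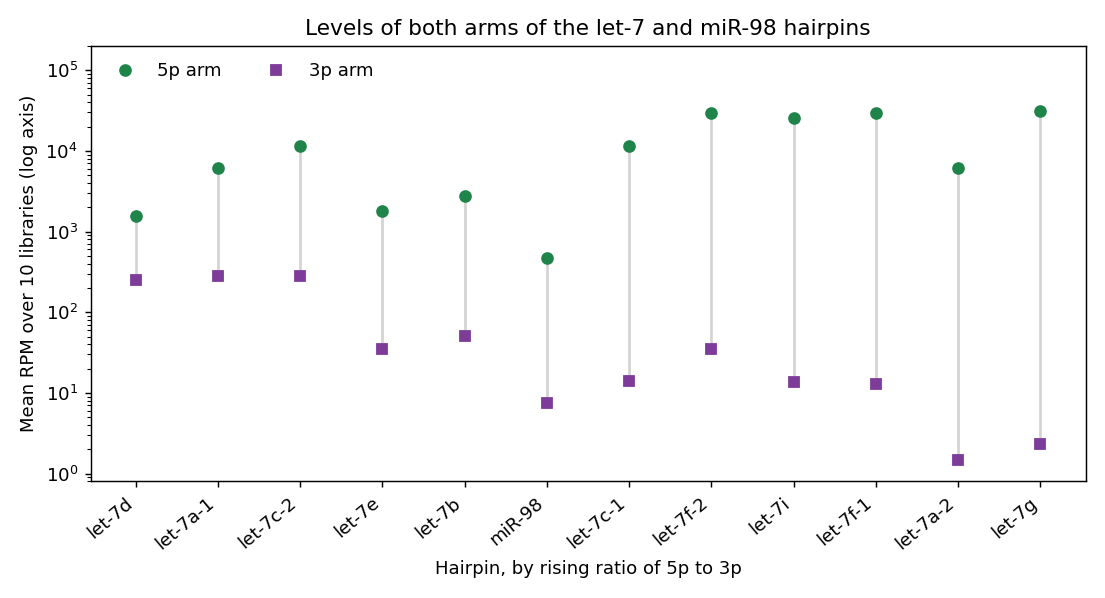
Mean RPM over the 10 libraries (log axis) of the 5p arm (green circles) and the 3p arm (purple squares) of each let-7 and miR-98 hairpin, ordered by the ratio of 5p to 3p. The 5p value of a member with 2 hairpins is shown for both. The gap widens from let-7d (1574 against 252 RPM) to let-7g (30795 against 2.33 RPM).

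The 3p arms did not pass the comparison of the groups either. Of 12, 0 passed (limma, smallest adjusted p = 0.76) and 10 had a fold change below 0, beside 62.2% of all miRNAs. The rows let-7a-1-3p and let-7c-2-3p, which share their values (log2 fold change -0.077), are both among the 10. let-7d-3p stood at 254, 227, 257, 211 and 242 RPM in 2-VO replicates 3, 5, 6, 7 and 8, and at 257, 257, 266, 273 and 280.2 RPM in sham replicates 1 to 5. Of its 2-VO libraries 4 lay below every sham library, and replicate 6 lay at the low end of the sham range. Its fold change (log2) was -0.17 ± 0.093 (SE), with 0.77 as limma's adjusted p. let-7c-1-3p had the lowest fold change of the 3p arms, with 12.7 ± 1.52 RPM in 2-VO and 15.4 ± 1.91 RPM in sham libraries. Its fold change (log2) was -0.25 ± 0.12 (SE), with 0.76 as limma's adjusted p.

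Both arms of a hairpin were then set against each other (5p over 3p in each library), to see whether they differed alike. For let-7a, let-7c and let-7f the 5p row pools both hairpins, and this pooled value was set against each 3p row. Their ratios are thus not those of a single hairpin. Of the 12 let-7 and miR-98 hairpins 0 passed (limma, adjusted over 155 hairpins, smallest adjusted p = 0.52), beside 0% of all hairpins, and 0 of the 12 had an unadjusted p under 0.05, beside 10.3% of all. The largest difference was that of the pooled let-7f-5p over let-7f-2-3p. This log2 ratio was 9.59 ± 0.226 in 2-VO and 9.82 ± 0.0820 in sham libraries (SD, n = 5 each), a difference of -0.23 (95% interval -0.48 to 0.027). For let-7d the difference was -0.013 (95% interval -0.25 to 0.23), beside log2 fold changes of -0.18 for the 5p and -0.17 for the 3p arm, and its sign turned without 2-VO replicate 3 or 5 and without sham replicate 2 or 3.

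Some let-7 hairpins share a cluster with miR-99, miR-100 and miR-125 hairpins. In RefSeq let-7e lies between miR-99b and miR-125a, let-7a-2 between miR-100 and miR-125b-1, and let-7c-1 between miR-99a and miR-125b-2. Of the 11 miRNAs of these partners 9 had a fold change below 0 and 2 an unadjusted p under 0.05, beside 62.2% and 5.06% of all miRNAs, while 0 passed the adjusted threshold (limma, smallest adjusted p = 0.76). Beside let-7e-5p (-0.15), miR-125a-5p had a log2 fold change of -0.23 and miR-99b-5p of -0.14. Beside let-7c-5p (-0.11) and let-7a-5p (-0.21), miR-99a-5p stood at -0.064, miR-100-5p at -0.14 and miR-125b-5p, whose row is repeated as miR-3588, at -0.17. miR-125a-5p was at 3809.8, 4078, 4993, 4032 and 3954 RPM in 2-VO replicates 3, 5, 6, 7 and 8, and at 4122, 5200.1, 5149, 4487 and 5471 RPM in sham replicates 1 to 5. Only 2-VO replicate 6 lay within its sham range.

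Outside the family, the log2 profiles over the 10 libraries closest to that of the summed family were those of miR-92b-3p, miR-30a-3p and miR-103-3p. Their root-mean-square differences from the family profile were 0.072, 0.077 and 0.078 on the log2 scale, where the median of the 183 miRNAs of at least 100 RPM compared was 0.16. The library factors common to all miRNAs cancel in this measure.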

How the data were processed

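Small RNA of 10 rat hippocampus libraries (NEBNext kit, gel size selection, per the labels' protocols) was sequenced. The authors deposited 1 RPM value per mature miRNA and library. Of tools and builds, bcl2fastq, BWA and rn6 appear in the submitters' processing notes. Not given in the sources used here are the annotation, the use of strand and the handling of reads with several matches. All 4962 values above 0 were whole reads at 1 divisor per library (within 0.01 reads), the smallest being 10 reads. A value of 0 thus stands for fewer than 10 reads, and molecular identifiers are not named, so intervals and counting errors leave out PCR copies.

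Groups were compared on log2(RPM + 1), for 474 miRNAs that averaged 1 RPM or more, with limma 3.58.1 in R 4.3.3 (two-sided, mean-variance trend, Benjamini-Hochberg adjustment, threshold 0.05). Fold changes understate those of low miRNAs. Arm ratios were fitted likewise over 155 hairpins with both arms kept. Only the main fit of single miRNAs was run on simulated data with known fold changes, not the arm ratios or the alternatives. The simulation drew each miRNA independently, without the floor of 10 reads or shifts shared by a whole library. Library pairs of a group differed by at least 95.2 in chi-square per degree of freedom, so none was counted as a repeat. Alternatives changed the pseudocount, filter, scaling, weights, test, rows and block, or left out each library. A planned count model was not run, since counts under 10 reads are missing from the table. The members and lists were chosen with earlier results of these data known. Named were all members, their 3p arms, cluster partners, rows repeating a member, and the 3 closest profiles.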

Additional observations from a re-analysis of the deposited data

Results flagged for a closer look

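In 6 of 104 groups of 5 values the highest or lowest library stood apart, at more than 0.71 of the group's whole range from its neighbour. Chance would give about 5.2 if the groups were independent. They are not, since some rows repeat others and the shares reuse the RPM values, so 5.2 is only a rough guide. let-7i-5p stood apart in 2-VO replicate 6 with 29809.7 RPM, while the remaining 2-VO libraries held 23390.0 to 24774 RPM. miR-125a-5p was also highest in 2-VO replicate 6, with 4993 RPM against 3809.8 to 4078 RPM. miR-98-5p stood apart in sham replicate 1 with a low 406 RPM, while the remaining sham libraries held 530.3 to 551 RPM. In sham replicate 5, let-7a-1-3p and let-7c-2-3p, which share their values, were at 378 RPM against 252 to 288 RPM, and let-7f-1-3p was at 16.7 RPM against 11.7 to 12.6 RPM. No explanation was tested.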

How the results depend on the processing

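No member and no let-7 hairpin passed in any of the 25 and 15 other settings run (limma and the other tests, smallest adjusted p = 0.48 for a member, with array weights, and 0.37 for a hairpin). Across settings 6 to 9 of the members were lower in 2-VO, beside 47.7% (TMM factors) to 80.6% (replicate block) of all miRNAs. Changed filters, the exact permutation test and the dropping of repeated rows leave a member's fold change as it was. Summing the members that differ by 1 base gives let-7a-5p, let-7b-5p, let-7c-5p, let-7e-5p and let-7f-5p a shared value (-0.12). With these settings counted, the fold changes of let-7a-5p, let-7c-5p, let-7d-5p, let-7e-5p, let-7f-5p and miR-98-5p stayed below 0 in all 25. They ran from -0.73 (miR-98-5p) and -0.54 (let-7a-5p) with the replicate block to -0.046 (let-7c-5p) without sham replicate 3. The fold change of let-7b-5p turned positive under 5 scalings, to the listed reads (0.035), by TMM (0.044), by median of ratios (0.035), to the summed family (0.036) and by quantiles (0.076). Leaving out each library in turn gave 6 to 9 members lower, a median of -0.20 to -0.080 and a ratio of the summed family of -0.12 to -0.0097. Over all miRNAs these runs gave 50.2% to 70.5% lower and a median of -0.079 to -0.0020. They gave -0.089 to 0.054 for let-7b-5p, -0.053 to 0.060 for let-7g-5p and -0.051 to 0.036 for let-7i-5p. The arm differences then ran from -0.067 to 0.041 for let-7d, -0.12 to 0.041 for let-7c-2, -0.0028 to 0.14 for let-7g and -0.089 to 0.049 for let-7i, which stood at 0.028 with array weights. The groups share only the replicate numbers 3 and 5, nothing says that these pair the samples, and the deviations of same-numbered libraries correlated at -0.058 and -0.18. With the replicate block, which leaves these 4 libraries to set the difference, the median fold change of the members was -0.37 and the log2 ratio of the summed family -0.31, let-7g-5p stood at -0.28 and let-7i-5p at -0.15, and the arm differences of let-7b, let-7c-1 and let-7g at -0.17, -0.25 and -0.041. Over all miRNAs in this setting the median was -0.17 and 80.6% were lower in 2-VO. The replicate block called 8 of the 474 miRNAs, against 0 without it, and 0 members. An unadjusted p under 0.05 was then found for 2 members, beside 20 of the 474 miRNAs. With the members that differ by 1 base summed, their log2 fold change was -0.12 (limma adjusted p = 0.87), and members lower, the median and the summed level were not recomputed. The planned quasi-likelihood count test was not run. For the summed level, settings that change only the test, the filter or the pseudocount give no other value.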

Other observations

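The table lists 4 rows that RefSeq (GRCr8) places on the strand opposite a let-7 hairpin, and each is the exact reverse complement of a stretch of a member. They are shown so that their overlap with the members can be read off.
miR-3596a: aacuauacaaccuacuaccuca
miR-3596b: aacuaugcaaccuacuaccu
miR-3596c: acuauacaaccuccuaccuca
miR-3596d: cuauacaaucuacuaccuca

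miR-3596a covers bases 1 to 22 of let-7a-5p, and the rows differed by 0 to 6 reads in the 2-VO and by 1 to 10 reads in the sham libraries. miR-3596c covers bases 1 to 21 of let-7e-5p and stood at 35.7% ± 1.75 of its RPM in 2-VO and 36.2% ± 1.83 in sham libraries (SD, n = 5 each). miR-3596d covers bases 1 to 20 of let-7f-5p and stood at 8.23% ± 1.11 of its RPM in 2-VO and 8.92% ± 0.954 in sham libraries. miR-3596b leaves out the first 2 bases, covering bases 3 to 22 of let-7d-5p, and stood at 0.602% ± 0.0642 of its RPM in 2-VO and 0.612% ± 0.0685 in sham libraries. The 4 shares overlapped between the groups. Whether these rows hold reads of the sense strand was not tested, and neither strand nor read ends are in the table. All 4 rows, miR-3596a with the values of let-7a-5p among them, had log2 fold changes below 0 (-0.24 to -0.17), beside 62.2% of all miRNAs, and 0 passed, beside 0% of all (limma, smallest adjusted p = 0.76).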
